A study of Mus musculus with 26 samples.

Results

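Notch ligands are membrane proteins that activate Notch receptors on the neighbouring cell. The genes described here are Dll1, Dll3, Jag1, Jag2 and Dlk2, which are 5 of the 48709 genes in the RNA tables. They were picked by name as Delta, Jagged and Delta-like family members. Dll4 and Dlk1 belong to the same family and are not among the 5, so results for the 5 do not cover the whole family. Cochleae were taken from mice at postnatal day 1 and kept in culture with either the gamma-secretase inhibitor DAPT or its solvent DMSO, and supporting cells were then sorted from them. At 24 h all cells carrying Lfng-GFP, a green reporter driven by Lfng, were taken from 3 DMSO and 3 DAPT samples for RNA-seq. At 48 h the cells carried TdT, a red reporter switched on by a Cre driven by Lfng (Lfng-CreER/TdT in the design text, Lfng-CreET/TdT in the sample labels). The control group at 48 h was DMSO-treated and sorted as TdT+ only. The nonpermissive group was DAPT-treated and also sorted as TdT+ only. The permissive group was DAPT-treated and sorted as TdT+ and Atoh1-GFP+, where Atoh1 is the transcription factor that starts hair cell differentiation. RNA-seq at 48 h comprised 2 control, 3 nonpermissive and 3 permissive libraries. ATAC-seq, which marks open chromatin, and CUT&RUN for H3K27ac, an acetylated histone found at active promoters and enhancers, each comprised 2 libraries a group. Time, reporter and RNA kit changed together between 24 h and 48 h, so levels at the 2 times stand side by side without a test. Whether replicates are separate animals is not stated in the labels, so each p-value rests on a spread between samples that may be technical only.

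When a ligand binds, gamma-secretase cuts the receptor and its freed inner part enters the nucleus, joins the DNA-binding protein RBPJ and switches on Hes and Hey genes. In the cochlea, hair cells display Dll1 and Jag2 toward the supporting cells around them, whereas Jag1 is a ligand of the supporting cells themselves. Dll1, Jag1 and Jag2 activate receptors on neighbouring cells, Dll3 acts mainly inside the cell that makes it and dampens signalling, and Dlk2 is a related membrane protein that lacks the receptor-binding domain of the Delta and Jagged ligands.

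The genes lie on 4 chromosomes of the mm10 build (GRCm38.p6 in RefSeq). Dll1 spans chr17:15367354-15376932 on the minus strand and has 2 annotated start sites. Dll3 spans chr7:28293555-28301785, Jag1 chr2:137081451-137116520 and Jag2 chr12:112907803-112929812, all on the minus strand. Dlk2 spans chr17:46297256-46303271 on the plus strand, shares part of that span with Abcc10 and the noncoding gene Gm41588, and also has 2 start sites. Jag2 holds the microRNA gene Mir6941. The sources used here do not say whether reads were counted by strand, so reads of overlapping genes cannot be told apart. Abcc10 did not pass the test in any of the 4 comparisons, with log2 fold changes from -0.83 to 0.26.

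The promoter sequences below are shown because open chromatin or H3K27ac was measured at these start sites, and because a reader can see in them the letters bound by the factors of this pathway. Each runs 5′ to 3′ on the gene's own strand from 250 bases before to 50 bases after the start site, as given by RefSeq. Capitals mark matches on either strand to the E-boxes CAGCTG and CAGATG, bound by Atoh1-type factors, to TGGGAA, the core of the RBPJ site, and to CACGNG, a site of Hes and Hey repressors.
Dll1 first start (chr17:15376883-15377182): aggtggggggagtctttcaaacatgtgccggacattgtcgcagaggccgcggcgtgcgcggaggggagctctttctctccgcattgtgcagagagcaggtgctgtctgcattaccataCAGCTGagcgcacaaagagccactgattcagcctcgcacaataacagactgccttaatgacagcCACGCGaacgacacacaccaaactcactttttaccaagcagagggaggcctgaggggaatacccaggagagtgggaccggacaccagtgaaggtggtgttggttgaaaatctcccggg
Dll1 second start (chr17:15375774-15376073): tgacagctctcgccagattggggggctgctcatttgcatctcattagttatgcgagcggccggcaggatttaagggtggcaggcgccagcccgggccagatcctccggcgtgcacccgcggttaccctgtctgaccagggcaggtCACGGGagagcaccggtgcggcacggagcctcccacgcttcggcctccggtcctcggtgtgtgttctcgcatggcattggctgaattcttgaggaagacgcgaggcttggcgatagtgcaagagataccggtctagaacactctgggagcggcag
Dll3 (chr7:28301736-28302035): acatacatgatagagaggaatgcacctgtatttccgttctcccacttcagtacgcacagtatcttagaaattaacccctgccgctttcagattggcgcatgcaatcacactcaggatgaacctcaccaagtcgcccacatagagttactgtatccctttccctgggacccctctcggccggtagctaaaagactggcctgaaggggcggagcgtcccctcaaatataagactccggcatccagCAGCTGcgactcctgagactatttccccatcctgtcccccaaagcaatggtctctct
Jag1 (chr2:137116471-137116770): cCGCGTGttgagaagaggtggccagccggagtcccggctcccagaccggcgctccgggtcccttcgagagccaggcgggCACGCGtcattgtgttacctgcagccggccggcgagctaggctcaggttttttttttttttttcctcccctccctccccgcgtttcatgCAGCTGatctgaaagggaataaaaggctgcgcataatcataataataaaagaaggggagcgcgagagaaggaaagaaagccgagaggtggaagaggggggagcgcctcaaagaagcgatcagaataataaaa
Dlk2 first start (chr17:46297233-46297532): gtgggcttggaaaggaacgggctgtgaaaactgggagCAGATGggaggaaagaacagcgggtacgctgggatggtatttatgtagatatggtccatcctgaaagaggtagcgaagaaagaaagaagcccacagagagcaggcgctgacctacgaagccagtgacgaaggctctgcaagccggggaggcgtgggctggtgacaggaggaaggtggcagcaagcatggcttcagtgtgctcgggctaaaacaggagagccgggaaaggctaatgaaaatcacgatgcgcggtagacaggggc

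CAGCTG was found in the windows of Dll1 (first start, 132 bases before it), Dll3 (7 bases before) and Jag1 (82 bases before). Of all 32851 promoter windows of this length, 16.3% held that motif. The other E-box, CAGATG, was found at the first start of Dlk2, 213 bases before it, and in 17.2% of all windows. CACGNG was found at both Dll1 starts, 2 times at Jag1, and 18 bases after the start of Jag2, against 27.5% of all windows. None of the 7 windows of these genes held TGGGAA, which 25.6% of all windows held. The Jag2 window, not printed, has a GC content of 86.0%, against a median of 52.7% over all windows. No matches overlapped each other, and a match is a run of letters, not a measured site.

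The depth was 10666050 to 13158897 expected counts a library at 24 h and 2165338 to 4896374 at 48 h. Markers followed the sorts. At 48 h the 10 supporting cell markers summed to 6825 to 13242 CPM (counts relative to the scaled library total) in control and nonpermissive libraries, and to 659 to 826 in permissive ones. The 10 hair cell markers summed to 151 and 279 CPM in the control libraries, to 288 to 366 in nonpermissive ones and to 5720 to 7694 in permissive ones, so the 3 groups did not overlap. Atoh1 itself measured 2.92 ± 0.898 CPM (SD, n = 2) in control, 46.2 ± 19.0 (SD, n = 3) in nonpermissive and 815 ± 187 in permissive cells. The 10 endothelial markers summed to 23.2 and 54.8 CPM in control, 122 to 295 in nonpermissive and 57.4 to 160 in permissive libraries, both DAPT-treated groups lying wholly above control. The permissive samples are labelled supporting cells, and their defining supporting cell markers were low. At 24 h the hair cell sum was 1792 to 2165 CPM in DMSO and 4443 to 7522 in DAPT, and 8 of the 10 hair cell markers rose. These sums move with the ligand results, and their part in them was not tested. In sorted bulk cells, fewer cells of a type and less RNA per cell cannot be told apart.

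At 24 h, DAPT raised 4 of the 5 genes and lowered 1. Dll1, Dll3, Jag2 and Dlk2 rose between 5.25-fold and 22.8-fold, and Jag1, the most abundant of them in DMSO, fell by 1.09 on the log2 scale. For all 5 the DAPT values lay wholly outside the DMSO values, as they did for 42.3% of all 15174 genes tested. With edgeR's quasi-likelihood test and Benjamini-Hochberg adjustment, 11.5% of those genes rose and 14.2% fell at an adjusted p under 0.05. The median log2 fold change of the 5 genes was 2.70, against 0.01 over all genes tested.

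Dll1, the Delta ligand of nascent hair cells, measured 6.50, 8.62 and 10.7 CPM in the DMSO libraries and 95, 120 and 107 in the DAPT libraries at 24 h. The lowest DAPT library stood far above the highest DMSO library, a log2 fold change of 3.64 ± 0.18 (SE, adjusted p = 3.94e-06). Dll3, the ligand that acts within the cell, measured 9.52, 7.96 and 12 CPM in DMSO and 209, 235 and 228 in DAPT. Its log2 fold change of 4.51 ± 0.15 (adjusted p = 8.05e-07) was the largest of the 5 at 24 h.

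Jag1 went the other way. It measured 3356, 3379 and 3736 CPM in DMSO and 1518, 1516 and 1897 in DAPT, with no overlap and a log2 fold change of -1.09 ± 0.12 (adjusted p = 0.000259). Jag2, the Jagged ligand of hair cells, measured 86.7, 97.1 and 112 CPM in DMSO and 519, 589 and 447 in DAPT. That is a log2 fold change of 2.39 ± 0.14 (adjusted p = 7.11e-06), so the 2 Jagged genes moved in opposite directions. Dlk2 measured 73.3, 72.8 and 78.5 CPM in DMSO and 469, 566 and 425 in DAPT, a log2 fold change of 2.70 ± 0.12 (adjusted p = 2.85e-06).

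**Figure D1:**
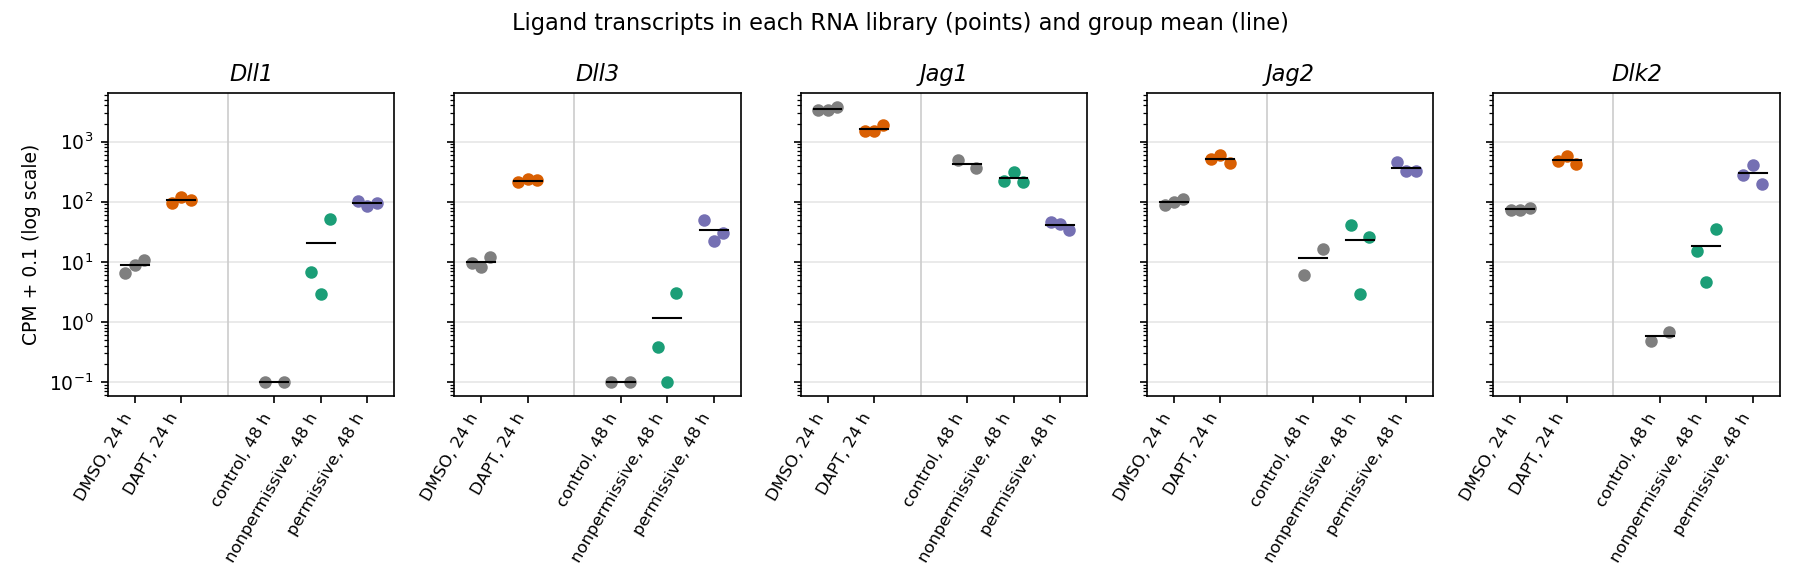
CPM of each gene in every RNA library, on a log axis after adding 0.1. Points are libraries, black lines are group means, and the vertical line parts the 24 h from the 48 h libraries, which differ in sort and kit. Jag1 is lowest in the permissive libraries, at 34.4 to 45.2 CPM, where the other 4 genes are highest among the 48 h groups.

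At 48 h, permissive cells differed from control cells in the same directions. Dll1, Dll3, Jag2 and Dlk2 rose and Jag1 fell, where 5.72% of 13411 genes tested rose and 7.28% fell. Control and permissive values did not overlap for any of the 5, nor for 40.6% of all genes tested. The marker sums of hair cells, endothelium, neurons and blood were also higher in these permissive libraries. For blood the sum did not stand for the list. Permissive libraries detected 1 to 3 of its 7 markers and control libraries 4 to 7. Of the 4 blood markers tested 1 rose, and their median log2 fold change was -2.35. The part of these marker sums in the rises was not tested. The median log2 fold change was 5.58 with Dll1 and Dll3 at their lower bounds, against 0.06 over all genes. The 2 control libraries serve in this comparison and in the one of nonpermissive cells, and the permissive libraries serve in 2 comparisons as well, so these are not independent.

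Dll1 had no counts in either control library and measured 103, 83.7 and 93.8 CPM in the permissive libraries. Set against a floor of 3 counts in each control library, that is at least 132-fold higher (edgeR adjusted p = 0.00109). Dll3 likewise had no counts in the controls and measured 50.1, 22.1 and 29.5 CPM in permissive cells, at least 47.9-fold higher (adjusted p = 0.00189). Neither Delta gene was therefore detectable in control cells at the depth of these libraries.

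Jag1 measured 488 and 371 CPM in control cells and 45.2, 42.5 and 34.4 in permissive cells, a log2 fold change of -3.40 ± 0.41 (edgeR adjusted p = 0.000211). Jag2 measured 5.98 and 16.5 CPM in control cells and 459, 328 and 319 in permissive cells, a log2 fold change of 5.04 ± 0.90 (adjusted p = 0.00218). The lowest permissive Jag2 value was far above the higher control value. Dlk2 had 2 counts in each control library, or 0.374 and 0.571 CPM, and 283, 409 and 194 CPM in permissive cells (adjusted p = 0.000111). The ratio of pooled counts was 659, with a 95% counting interval of 257 to 2422 that covers counting error only.

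Nonpermissive cells had the same drug but no Atoh1-GFP. Of the 5 genes only Dlk2 passed the edgeR test against control, where 0.0671% of genes tested rose and 0.127% fell. The values of Dll1, Jag1 and Dlk2 did not overlap the controls, nor did those of 20.5% of all genes tested. The median log2 fold change was 1.07 with the 2 Delta genes at their bounds, against 0.00 over all genes. Dlk2 measured 14.8, 4.57 and 35.5 CPM, all above the controls, with a pooled ratio of 45.0 (95% counting interval 17.3 to 167, edgeR adjusted p = 0.0391). That call did not hold with the replicate number as a block (adjusted p = 0.0655), with the 2 groups fitted alone (0.0625), or without control 1 (0.222), control 2 (0.229), nonpermissive 1 (0.0777) or nonpermissive 3 (0.0863).

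Dll1 measured 6.70, 2.86 and 50.9 CPM in nonpermissive cells. All 3 values exceeded the controls, at 0, but 1 library carried most of the signal, and the edgeR adjusted p was 0.0704. DESeq2 called it (adjusted p = 5.81e-05), as did edgeR with no filter on low counts (1.20e-10) or without permissive 1 (0.0450). The hair cell marker sum was also wholly above control in the nonpermissive libraries, at 288 to 366 against 151 and 279 CPM, and the library with 50.9 CPM of Dll1, replicate 3, had 326. The part of that shift in the Dll1 and Dlk2 values was not tested. Dll3 measured 0.279, 0 and 2.88 CPM (adjusted p = 0.511), so that 1 nonpermissive library was at 0 like the controls.

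Jag1 measured 218, 307 and 214 CPM in nonpermissive cells, all below both controls, a log2 fold change of -0.80 ± 0.40 that did not pass the edgeR test (adjusted p = 0.712). Jag2 measured 40.8, 2.86 and 25.6 CPM, which overlapped the control values (adjusted p = 0.863). Endothelium also expresses Notch ligands, and the part of its markers, whose sums are given above, in the ligand values of either DAPT-treated group was not tested.

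The 2 DAPT-treated groups of 48 h differed directly in 4 of the 5 genes. Dll3, Jag2 and Dlk2 were higher and Jag1 lower in permissive than in nonpermissive cells, where 6.78% of genes tested rose and 6.35% fell. The median log2 fold change was 3.97, against -0.00 over all genes tested. Permissive and nonpermissive values did not overlap for any of the 5 genes, nor for 30.1% of all genes tested. For Dll1, which did not pass in this fit without a pairing term, the gap alone does not show a difference. With the replicate number as a block Dll1 did pass, as given below.

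The log2 fold change of permissive over nonpermissive cells was 4.86 ± 0.96 for Dll3 (edgeR adjusted p = 0.00507) and 3.97 ± 0.71 for Jag2 (adjusted p = 0.00223). It was 3.99 ± 0.63 for Dlk2 (adjusted p = 0.00101) and -2.59 ± 0.38 for Jag1 (adjusted p = 0.000665). Dll1 had a log2 fold change of 2.20 ± 0.79 and an adjusted p of 0.0923. It passed with the replicate number as a block (log2 fold change 3.11, edgeR adjusted p = 0.0107), under DESeq2 (0.0246), with no filter (0.00119) and without nonpermissive 3 (4.22, adjusted p = 0.00207). Leaving out that library, the one with 50.9 CPM, therefore moved the Dll1 difference more than leaving out any other.

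**Figure D2:**
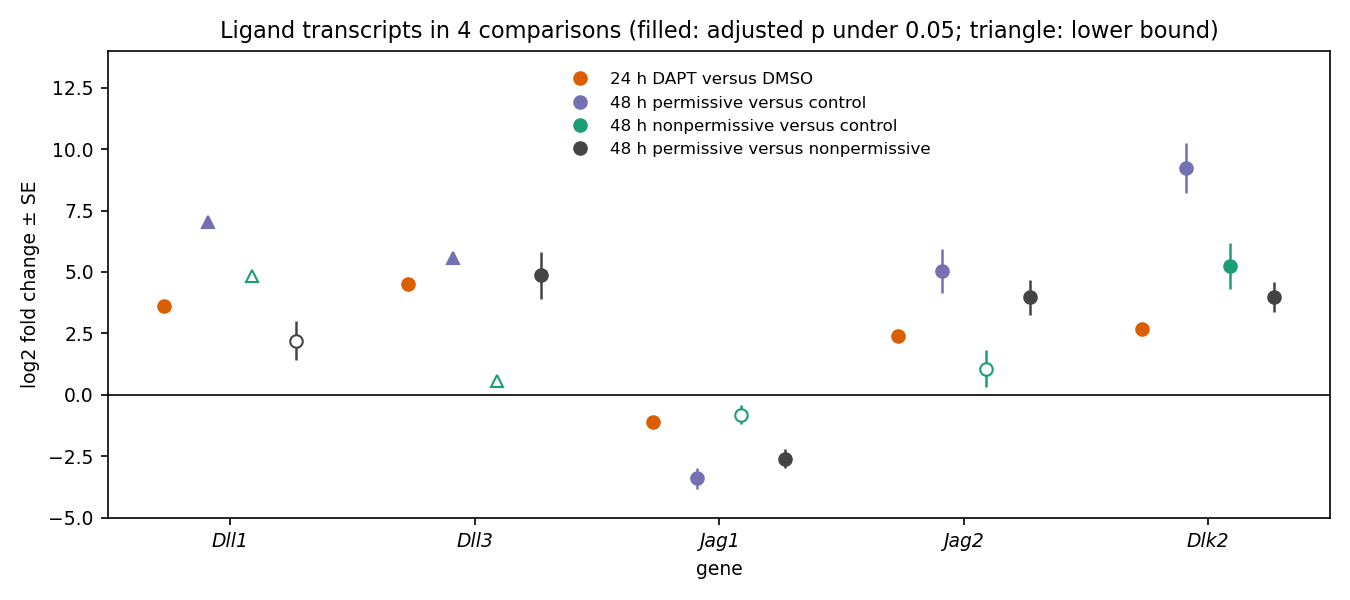
Log2 fold change of each gene in the 4 comparisons, with SE. Filled symbols passed an adjusted p of 0.05, and triangles are lower bounds against control libraries without counts, drawn with no SE. Jag1 lies below 0 in every comparison, from -0.80 to -3.40, and the other 4 genes lie above it.

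TPM, unlike CPM, corrects for transcript length and so allows levels of different genes to be compared. In DMSO at 24 h, Jag1 stood at 1238 ± 73.1 TPM (SD, n = 3), followed by Dlk2 at 110 ± 4.85 and Jag2 at 47.9 ± 6.29. Dll3 at 9.07 ± 2.54 and Dll1 at 8.38 ± 1.39 came last, and their ranges overlapped. In DAPT at 24 h, Dlk2 at 698 ± 103 TPM and Jag1 at 579 ± 73.9 overlapped at the top, ahead of Jag2 at 248 ± 34.7, Dll3 at 198 ± 10.8 and Dll1 at 85.1 ± 8.19. The last 3 were in that order without overlap.

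In control cells at 48 h, Jag1 stood at 146 ± 58.3 TPM (SD, n = 2), Jag2 at 4.77 ± 2.20 and Dlk2 at 0.660 ± 0.028, and both Delta genes were at 0. In nonpermissive cells the order by mean was Jag1 at 69.0 ± 17.9 TPM, Dll1 at 26.9 ± 37.0, Dlk2 at 22.2 ± 16.8, Jag2 at 11 ± 11.2 and Dll3 at 0.993 ± 0.875, and each overlapped the next. In permissive cells it was Dlk2 at 346 ± 132 TPM, Jag2 at 159 ± 88.3, Dll1 at 105 ± 15.1, Dll3 at 34.7 ± 30.3 and Jag1 at 12.2 ± 5.29. There only Dll1 and Dll3 were neighbours without overlap. The TPM and shares of both Delta genes depend on how reads were divided among their transcripts. The deposited effective length ran from 985 to 2388 bases between libraries for Dll1 and from 457 to 2431 for Dll3, so that 1 count of Dll3 gave 1.33 TPM in one nonpermissive library and 9 counts gave 1.65 in another.

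The make-up of the 4 Delta and Jagged transcripts followed from these levels. Dll4 was left out of this set. Jag1 was 95% ± 0.345 (SD, n = 3) of their summed TPM in DMSO at 24 h and 52.0% ± 4.76 in DAPT. The sum itself was 1303 ± 81.7 TPM in DMSO and 1110 ± 50.8 in DAPT. Jag2 had 3.66% of the sum in DMSO and 22.4% in DAPT, Dll3 0.694% and 17.9%, and Dll1 0.640% and 7.66%.

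At 48 h Jag1 was 96.3% ± 2.84 (SD, n = 2) of the sum in control cells and 3.93% ± 0.355 (SD, n = 3) in permissive cells. Jag2 made up 49.7% ± 5.02 and Dll1 36.5% ± 9.26 of the permissive sum, and Dll3 9.87% ± 4.39. In nonpermissive cells the share of Jag1 ran from 40.5% to 95.3% and that of Dll1 from 3.50% to 51.5%, so the libraries of that group were unlike each other. The sum was 150 ± 56.1 TPM in control, 108 ± 36.3 in nonpermissive and 311 ± 139 in permissive cells.

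**Figure D3:**
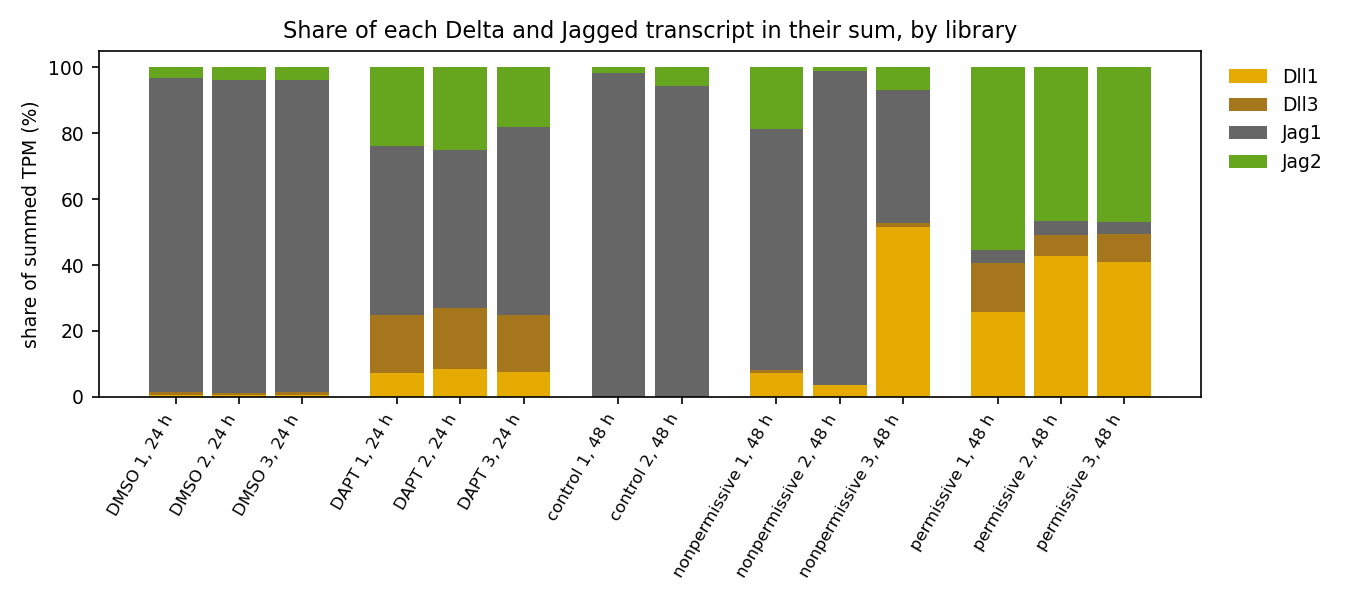
Share of Dll1, Dll3, Jag1 and Jag2 in their summed TPM, in percent, with 1 bar per RNA library. Jag1 fills most of every DMSO and control bar and under 5% of each permissive bar (at most 4.31%), and the 3 nonpermissive bars differ from each other.

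Other genes of the Notch pathway were followed in 8 lists of 49 genes in all. At 24 h, 7 of the 48 tested rose, or 14.6% against 11.5% of all genes, and 13 fell, or 27.1% against 14.2% (median log2 fold change -0.10). In permissive against control cells, 5 of 47 rose (10.6%, against 5.72% of all) and 11 fell (23.4%, against 7.28%), with a median of -0.32. In nonpermissive against control cells, 0 rose (against 0.0671%) and 2 fell (4.26%, against 0.127%), with a median of -0.21. In permissive against nonpermissive cells 4 rose (8.51%, against 6.78%) and 7 fell (14.9%, against 6.35%), with a median of -0.15. The shares that rose at 24 h and between the DAPT-treated groups were thus near those of all genes. For the alternative counts that follow, no share over all genes is given. The 7 that fell between the DAPT-treated groups became 3 without nonpermissive 1, permissive 2 or permissive 3. The 2 that fell in nonpermissive against control cells were 4 under DESeq2 and 5 with no filter, 1 without control 1, control 2, nonpermissive 1 or nonpermissive 2, and 0 without nonpermissive 3.

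Among the enzymes that ubiquitinate ligands so that they can be taken up and signal, 2 of 4 rose at 24 h. Neurl1a had a log2 fold change of 2.11 ± 0.16 and Neurl1b of 1.94 ± 0.25. The same 2 rose in permissive against control cells, by log2 fold changes of 3.93 ± 0.68 and 4.78 ± 0.95, and against nonpermissive cells, by 2.96 ± 0.55 and 4.66 ± 0.80. The other 2 ligases of the list passed the test in none of the 4 comparisons.

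Of the 4 other ligands tested, Dner, a noncanonical ligand of neurons, rose and Cntn1, a contactin, fell in 3 comparisons. Dner measured 5.23 ± 0.964 CPM (SD, n = 3) in DMSO and 45.0 ± 4.0 in DAPT at 24 h. At 48 h it measured 0.468 in control (mean of 2 libraries), 2.34 in nonpermissive and 99.1 in permissive cells. Neuron markers at 48 h summed to 74.6 and 124 CPM in control, 37.1 to 81.7 in nonpermissive and 165 to 228 in permissive libraries. Their part in the Dner values was not tested. Cntn1 had log2 fold changes of -2.41 ± 0.16 at 24 h, -3.73 ± 0.57 in permissive against control cells and -2.59 ± 0.53 against nonpermissive cells. Dll4, the other activating Delta ligand, was singled out after its values were seen. At 24 h it measured 8.86 to 11.4 CPM in DMSO and 9.18 to 31.3 in DAPT, ranges that overlapped. At 48 h it had 3 counts over the 2 control libraries, 3.52 ± 3.15 CPM (SD, n = 3) in nonpermissive cells and 10.8 ± 3.53 in permissive cells. The edgeR adjusted p of permissive against control cells was 0.0347. In endothelium Dll4 is a major ligand. The endothelial markers summed to 23.2 and 54.8 CPM in control, 122 to 295 in nonpermissive and 57.4 to 160 in permissive libraries. Their part in the Dll4 values was not tested.

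No receptor rose in any comparison. Notch1 fell by 1.23 ± 0.13 on the log2 scale at 24 h, by 3.31 ± 0.57 in permissive against control cells and by 2.09 ± 0.52 against nonpermissive cells. Notch3 fell by 2.57 ± 0.14, 5.34 ± 0.78 and 3.0 ± 0.70 in the same order. The enzymes that add sugars to the receptors, which tune their choice of ligand, parted. Lfng, whose promoter also drives the reporters of the sort, had log2 fold changes of -2.28 ± 0.18 at 24 h and -2.90 ± 0.49 in permissive against control cells. Mfng had 2.19 ± 0.12 and 5.42 ± 0.81, and 2.95 ± 0.59 against nonpermissive cells.

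All 6 target genes of the pathway fell at 24 h, and 5 of the 6 in permissive against control cells. Nrarp, a feedback inhibitor, fell by 4.06 ± 0.13 and Hes5 by 8.09 ± 0.31 on the log2 scale at 24 h. Hey1 fell by 5.42 ± 0.74 and Heyl by 4.68 ± 0.65 in permissive against control cells. The 2 genes that fell in nonpermissive cells were Hes5 and Heyl, with log2 fold changes of -8.45 ± 1.10 (edgeR adjusted p = 0.00647) and -3.79 ± 0.63 (adjusted p = 0.0267). Hes5 measured 555 ± 364 CPM (SD, n = 2) in control cells and 1.38 ± 1.21 (SD, n = 3) in nonpermissive cells. Hey1 and Hes1 fell in permissive against nonpermissive cells, by 2.41 ± 0.63 and 2.10 ± 0.60.

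Changes in the remaining lists were few. At 24 h Psen2, a subunit of gamma-secretase, fell by 1.12 ± 0.11 on the log2 scale and Aph1b, another subunit, had a log2 fold change of 1.09 ± 0.19. Maml2 fell by 0.59 ± 0.12 and Maml3 had a log2 fold change of 0.60 ± 0.09. Both are coactivators of the nuclear complex. Numb, an inhibitor of the receptors, fell by 0.32 ± 0.09. Dtx4 had log2 fold changes of -3.04 ± 0.72 in permissive against control cells and -2.76 ± 0.68 against nonpermissive cells, where the gamma-secretase subunit Aph1c had -2.39 ± 0.68.

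**Figure D4:**
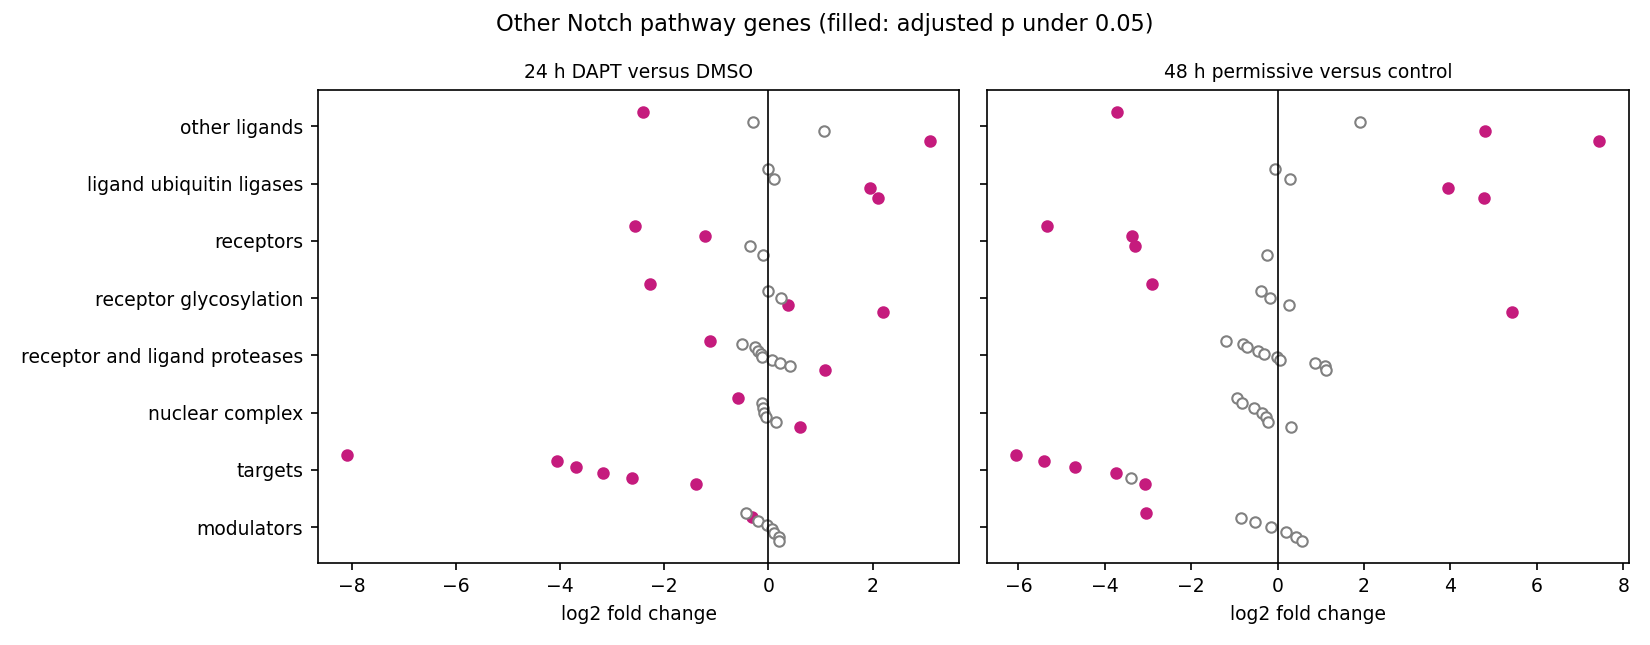
Log2 fold change of the other Notch pathway genes, by list, at 24 h (left) and in permissive against control cells at 48 h (right). Each point is a gene and filled points passed an adjusted p of 0.05. The 6 targets lie left of 0 in both panels, and Neurl1a and Neurl1b are the filled points of the ligase list.

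The genes whose RNA followed each ligand most closely were sought among 7005 genes, by the mean of Pearson's r over the 6 libraries of 24 h and over the 8 of 48 h. These libraries fall into treated and untreated groups at 24 h and into control, nonpermissive and permissive groups at 48 h. The value of r is therefore a description of those shared splits. Dll1 was most like Rnf182, a ubiquitin ligase (mean r 0.987), Dlk2 (0.984) and Hes6, a Hes-family factor (0.983). Dll3 was most like Vwa5b2 (0.991), the somatostatin receptor Sstr2 (0.991) and the cell cycle phosphatase Cdc25b (0.989). Jag1 was most like Marcks, a membrane substrate of protein kinase C (0.991), Igfbp3, which binds insulin-like growth factors (0.989), and the adhesion protein Mpzl2 (0.988). Jag2 was most like Anks1 (0.989), C77080 (0.987) and Ralgds, an exchange factor of Ral (0.984). Dlk2 was most like Hes6, the riboflavin transporter Slc52a3 and the calcium-binding protein Tesc.

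Chromatin was compared through the authors' peak lists, 1 per library. Peaks that overlapped by at least 1 base were merged into regions, and a library held a region if it had a peak there. Within 100 kb of the 5 genes lay 295 ATAC regions and 213 H3K27ac regions, of which 155 and 120 were held by 1 library only. At least 2 libraries held 140 and 93 of them, and 122416 of all 361954 ATAC and 69178 of all 232408 H3K27ac regions. The lists were of unequal strength: there were 86995 to 170918 peaks per ATAC library and 46161 to 114533 per H3K27ac library. Peaks with a deposited -log10 q of at least 10 numbered 18621 in the first permissive H3K27ac library and 269 in the second, and 19820 and 1778 in the nonpermissive ones. The control H3K27ac libraries had 916 and 1528 such peaks, of 57712 and 55268 in all. Peak names in both nonpermissive H3K27ac lists carry the replicate number 2, although the lists differ. With 2 libraries a group, regions were counted and described, and no test was run on them.

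Both permissive and neither control library held 21 of the 295 ATAC regions, or 7.12%, against 3.20% of all 361954 regions. Of regions held by at least 2 libraries the shares were 15.0% near the genes and 9.47% overall. By gene these were 8 of 50 at Dll1, 2 of 57 at Dll3, 4 of 55 at Jag1, 4 of 80 at Jag2 and 3 of 53 at Dlk2. The reverse class, held by both control and neither permissive library, numbered 12, or 4.07% against 2.44%, with 0 at Dll1. The 21 were 7 at a -log10 q of at least 10, 34 without control 1, 79 without permissive 1 and 44 without permissive 2. The 12 were 2 at that q, 7 with equal numbers of peaks, 38 without control 1, 46 without control 2 and 24 without permissive 2. No share over all regions stands beside these alternative counts or those of the paragraphs that follow. They therefore do not show whether the difference from all regions held near the genes. With 1 library left out, fewer libraries must meet the condition, which can only raise a count.

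H3K27ac gave 36 of 213 regions in both permissive and neither control library, or 16.9% against 3.93% of all 232408 regions. Of regions held by at least 2 libraries the shares were 38.7% and 13.2%. They lay near Dll1 (11 of 41), Jag2 (10 of 41), Dlk2 (10 of 42), Dll3 (3 of 33) and Jag1 (2 of 56). None of the 213 was held by both control and neither permissive library, against 1.73% of all regions. The 36 became 0 at a -log10 q of at least 10, which few peaks of the second permissive library reached, 15 where peaks had to cover 50% of the region, 56 without permissive 1 and 105 without permissive 2. The 0 became 3 with equal numbers of peaks, 2 where peaks had to cover 50% of the region, 8 without control 1, 13 without control 2 and 3 without permissive 1.

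Between the DAPT-treated groups, 16 ATAC regions (5.42%, against 3.16% of all) and 29 H3K27ac regions (13.6%, against 2.90%) were held by both permissive and neither nonpermissive library. The reverse numbered 5 (1.69%, against 2.13%) and 1 (0.469%, against 2.36%). Nonpermissive and not control libraries held 6 ATAC regions (2.03%, against 1.14%) and 2 H3K27ac regions (0.939%, against 1.75%), and control and not nonpermissive libraries 10 (3.39%, against 1.37%) and 0 (against 0.396%). At a -log10 q of at least 10 the 16, 29, 5, 1, 6 and 2 became 7, 0, 1, 0, 2 and 0, and the 10 became 0.

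Each of these counts moved by over 1.5 times without some single library. Without permissive 1 the 16 was 67 and the 29 was 47, and without permissive 2 they were 38 and 92; the 16 was 32 without nonpermissive 2. The 5 was 30 without nonpermissive 1, 25 without nonpermissive 2 and 18 without permissive 2, and the 1 was 6, 23, 4 and 2 without nonpermissive 1, nonpermissive 2, permissive 1 and permissive 2. The 6 was 15 without control 1, 41 without nonpermissive 1 and 29 without nonpermissive 2, and the 2 was 4, 8, 14 and 33 without control 1, control 2, nonpermissive 1 and nonpermissive 2. The 10 was 38 without control 1, 45 without control 2 and 19 without nonpermissive 2, and the 0 was 12, 11, 1 and 1 without control 1, control 2, nonpermissive 1 and nonpermissive 2.

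Of the 21 ATAC regions of permissive and not control cells, 8 overlapped an H3K27ac region of the same class, 5 of them near Dll1, 1 each near Dll3, Jag2 and Dlk2, and 0 near Jag1. In 3 of the 21 the -log10 q was at least 10 in both permissive libraries. Those 3 lay near Dll1, Jag2 and Dlk2. The same shares were not counted among all regions of this class, so the 8 and the 3 describe these regions only. Distances below run from the start site to the middle of the region, and each fold enrichment and q is the authors' own value for the peak.

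Upstream of Dll1, chr17:15381479-15382024 lay 4819 bases before the first start. It held an ATAC peak of fold 4.91 and 7.90 in the 2 permissive libraries (-log10 q 14.4 and 60.2) and none in the other 4. The H3K27ac region over it, chr17:15380311-15382256, was held by both permissive libraries only, with fold 11.9 and 6.38. A second ATAC region right beside it, chr17:15380560-15381317, was open in all 6 libraries. In the gene body, chr17:15371687-15372470 was open in the permissive libraries only (fold 2.88 and 5.51) and also lay within an H3K27ac region of those 2 libraries. The first start of Dll1, shown above with its CAGCTG, was open in all 6 libraries, control ones included. The second start was open in both permissive libraries and 1 nonpermissive library, and held H3K27ac in both permissive libraries only. Another H3K27ac region that overlapped the same open region was held by the first nonpermissive and the first permissive library.

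Around Dll3, the start site was open in both control and both permissive libraries and held H3K27ac in the permissive ones only (fold 8.27 and 5.58). A region 8138 bases before it, chr7:28309778-28310069, was open in the permissive libraries only (fold 3.65 and 4.46) and held H3K27ac there only, and its nearest annotated start is that of Gm51445.

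At Jag1 the start site was open and acetylated in all 12 chromatin libraries. Its ATAC region, chr2:137116114-137117708, had a fold of 7.41 and 5.15 in control and 4.15 and 7.13 in permissive libraries, values that overlapped. No presence or absence of a peak there went with the lower Jag1 RNA of permissive cells.

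Within Jag2, chr12:112924157-112924887 lay 4973 bases after the start, in the gene body. Its ATAC peak had a fold of 6.56 and 7.07 in the permissive libraries (-log10 q 42.4 and 87.1) and 3.49 in the second nonpermissive library (-log10 q 6.72), and the control libraries and the first nonpermissive one had none. The H3K27ac region over it, chr12:112923805-112926855, was held by the 2 permissive libraries only, with fold 21.5 and 4.78. The start of Jag2 itself lay between 2 ATAC regions, 123 bases from the nearer one, and the region upstream of it was held by 5 of the 6 libraries. The nearest H3K27ac region lay 499 bases away. The high GC content of that window is given above, and its part in the gap was not tested.

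The ATAC region at the start of Dlk2 was held by the first control, the second nonpermissive and both permissive libraries, and H3K27ac was held there by the permissive libraries only. The region next to it, chr17:46298229-46299073, was open in all 6 libraries. Far upstream, chr17:46221921-46222659 lay 75193 bases before the first start and nearest to the start of Xpo5. It was open in the permissive libraries only, with fold 5.93 and 10.9, and lay in an H3K27ac region of the same 2 libraries with fold 13.2 and 3.98. Closer to the gene, the H3K27ac region chr17:46278137-46289032 was held by all 4 DAPT-treated libraries and neither control library, and its nearest annotated start is that of Tjap1. Its highest peak had a fold of 7.98 and 3.92 in the nonpermissive and 30.4 and 8.77 in the permissive libraries. Nothing in these files ties a region to a gene beyond distance.

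**Figure D5:**
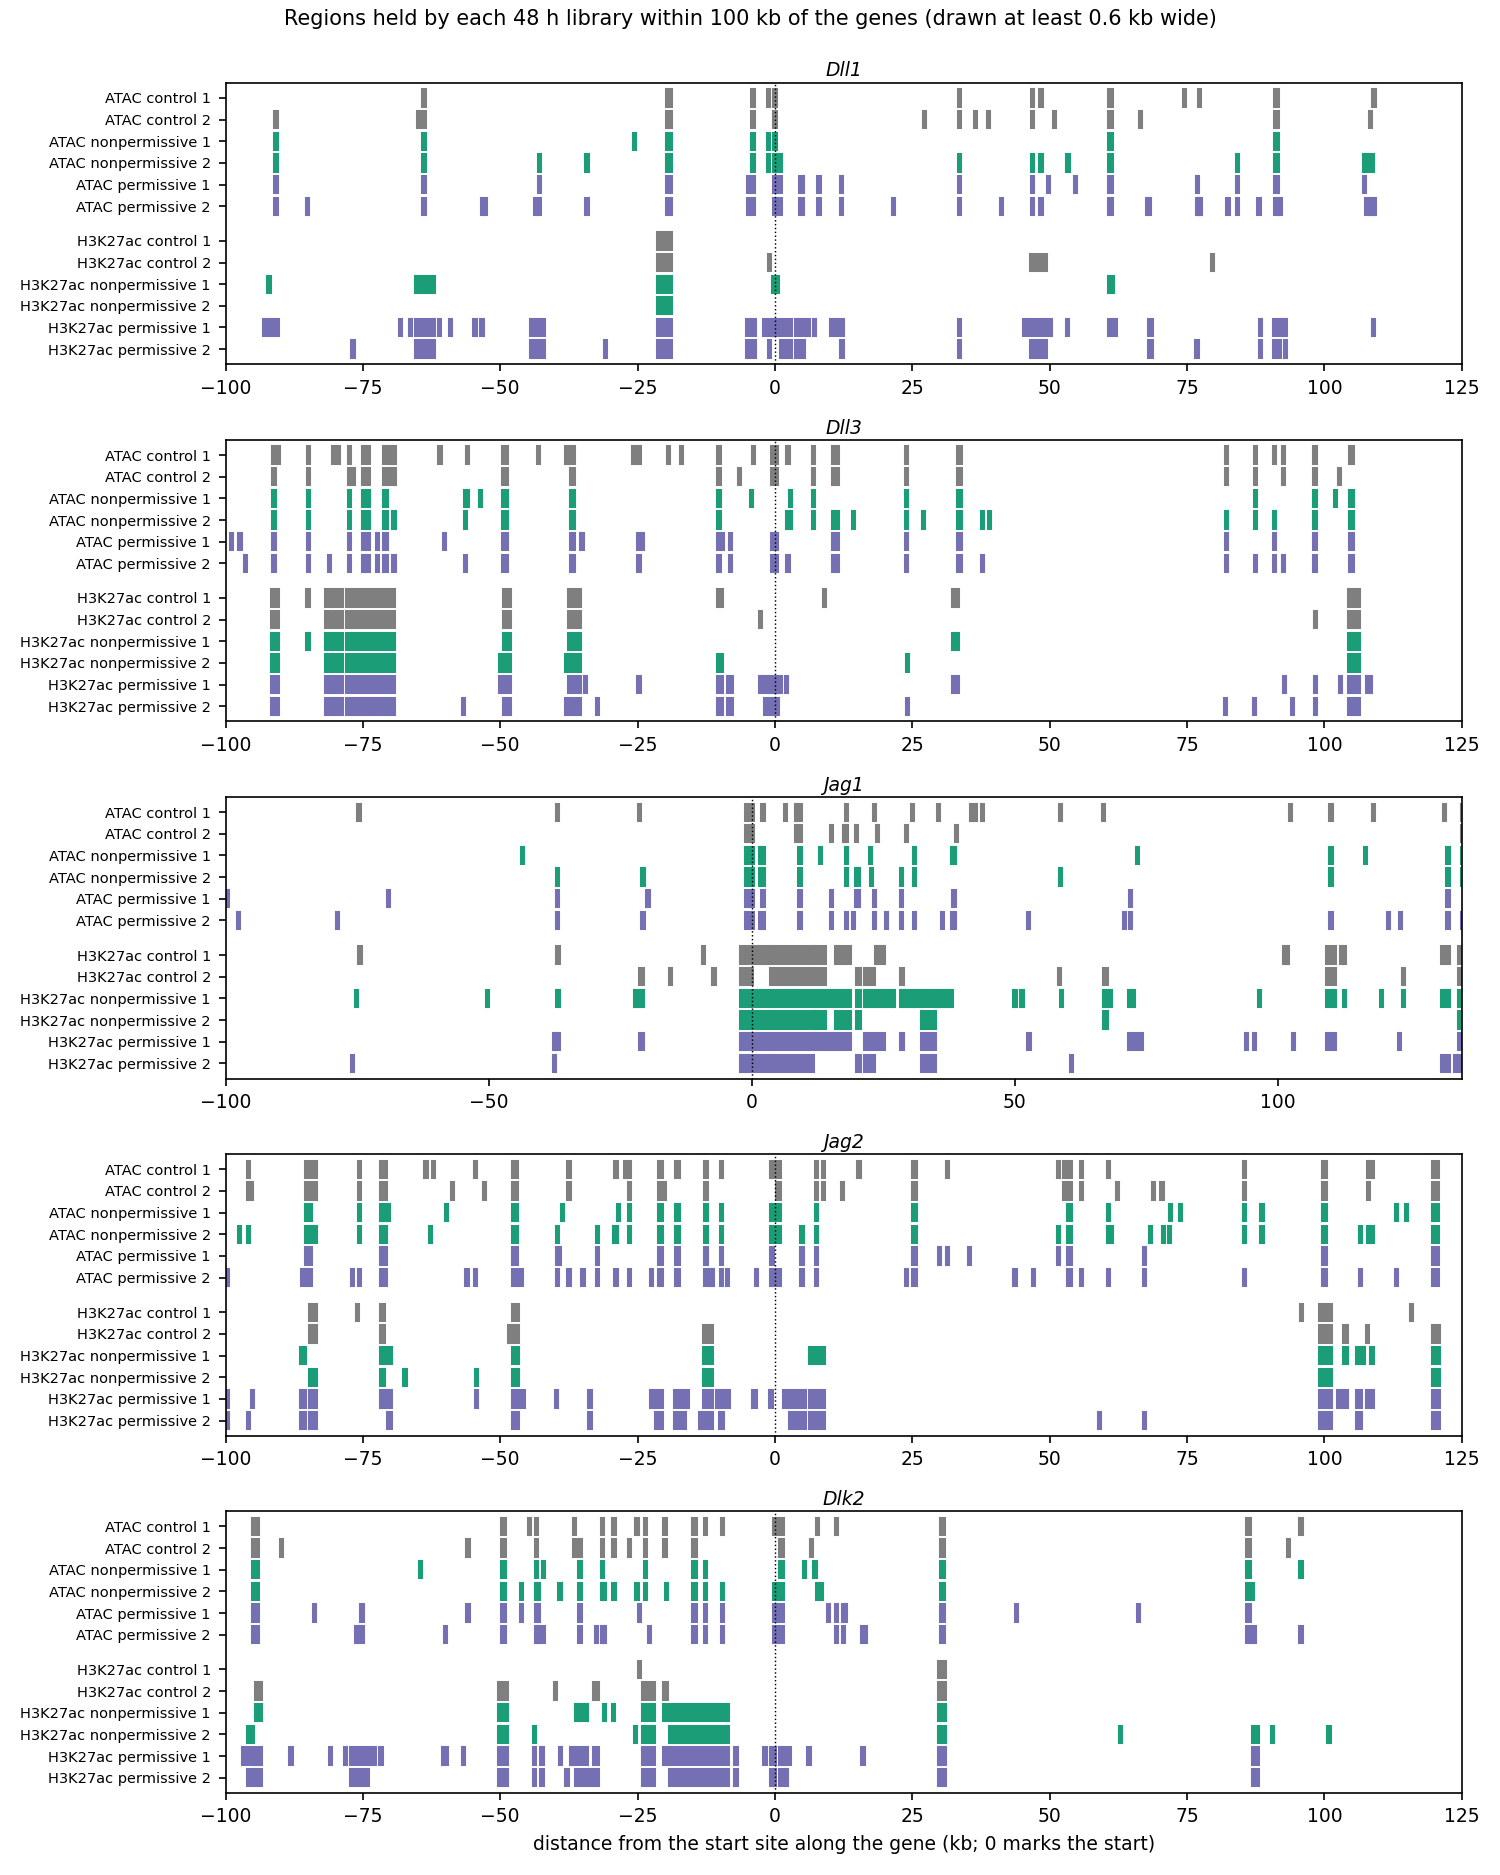
Regions within 100 kb of each gene, by distance from the start site in kb along the gene, for 6 ATAC and 6 H3K27ac libraries of 48 h. A block marks a region held by that library (grey control, green nonpermissive, violet permissive). Around the starts of Dll1 and Jag2, H3K27ac blocks are mostly violet, while the block at the Jag1 start spans all 12 rows.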

How the data were processed

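RNA-seq of 14 libraries and ATAC-seq and H3K27ac CUT&RUN of 6 libraries each were used. The authors deposited 1 RSEM table per RNA library, with expected counts, TPM and effective length per gene, per the file headers, and 1 peak list per chromatin library, with a fold enrichment (a ratio) and the −log10 of p and q per peak in the MACS2 layout. Per the submitters' processing notes, STAR, RSEM, Bowtie2, MACS2, UMI-tools and DESeq2 were used on mm10, and no versions are named in the notes used here. Per the labels' protocols, RNA libraries came from a poly(A) kit at 24 h and a single-cell total RNA kit at 48 h.

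Expected counts were rounded and tested with edgeR 4.0.16 (R 4.3.3), quasi-likelihood, TMM scaling, filterByExpr and Benjamini-Hochberg adjustment over all genes tested, in 1 fit of 6 libraries at 24 h and 1 of 8 at 48 h. The threshold was an adjusted p of 0.05. SE is the log2 fold change over the root of F. Gene symbols matched 48349 of 48709 identifiers. CPM is comparable between libraries and TPM between genes. Depth limits low values: a floor of 3 counts stands for 0, and floors and intervals cover counting error only. The scripts were tested on simulated counts. Alternatives were DESeq2 1.42.0, RLE scaling, no filter, the replicate block, the 2 groups alone and leaving out each library; for peaks, a −log10 q of at least 10, equal peak numbers, 50% coverage of the region, a window of 50 kb and leaving out each library.

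Named genes were the 5 ligands, up to 2 genes per pathway list with the smallest adjusted p under 0.05 in each comparison, and the 3 genes most like each ligand with mean log2 CPM of at least 4. The genes and lists were chosen with earlier results of these data known. Same-numbered permissive and nonpermissive libraries deviated together over 7484 genes (r = 0.58, 0.15 and 0.13), so they were read as pairs from the data, since the labels do not say what the number marks. That reading is weak beyond the first pair: nonpermissive 3 had r = 0.19 with permissive 2, above the 0.13 with its own number, and nonpermissive 2 had r = 0.14 with permissive 3.

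Marker lists for neurons, Schwann and satellite glia, blood and macrophages, melanocytes and mesenchyme were also summed. At 48 h, mesenchyme summed to 611 to 2777 CPM in control, 1387 to 3406 in nonpermissive and 229 to 678 in permissive libraries. Neuron markers summed to 74.6 to 124, 37.1 to 81.7 and 165 to 228, glia to 567 to 980, 539 to 783 and 111 to 278, blood to 35.2 to 41.9, 14.8 to 69.8 and 60.0 to 167, and melanocytes to 15.3 to 17.1, 7.82 to 25.1 and 2.02 to 7.36 in the same order. At 24 h the DMSO and DAPT sums were 8297 to 9703 and 4272 to 5350 for supporting cells, 425 to 476 and 430 to 555 for mesenchyme, 30.6 to 36.0 and 23.0 to 25.4 for endothelium, 302 to 336 and 290 to 737 for neurons, 416 to 432 and 224 to 284 for glia, 8.37 to 18.1 and 44.9 to 55.1 for blood, and 7.93 to 11.2 and 3.85 to 5.43 for melanocytes. Most of the blood sum at 24 h was Laptm5 alone, with a mean of 11.2 CPM in DMSO and 48.6 in DAPT.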

Additional observations from a re-analysis of the deposited data

Results flagged for a closer look

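RNA levels at 48 h differed between permissive and nonpermissive cells, both DAPT-treated, for 4 of the 5 genes. The test was the direct one of permissive against nonpermissive libraries with edgeR. The log2 difference was 4.86 for Dll3, 3.97 for Jag2, 3.99 for Dlk2 and -2.59 for Jag1. Over 13 alternatives each, these 4 kept their direction and an adjusted p under 0.05. The main fit held no term for the replicate number, and with that number as a block Dll1 passed as well. The sort on Atoh1-GFP parts the same libraries, so the sort and any difference in response cannot be told apart. No DMSO-treated group at 48 h was sorted as Atoh1-GFP+, so a difference in the effect of DAPT was not tested.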

How the results depend on the processing

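No ligand changed direction under any alternative run. All 5 kept their calls at 24 h (10 alternatives each) and in permissive against control cells (13 each). Of nonpermissive against control counts, members that rose numbered 2 under DESeq2 and with no filter on low counts, 0 with the replicate block and 0 with the 2 groups alone, and 0 to 2 leaving out single libraries. Pathway genes that fell numbered 4 under DESeq2, 5 with no filter and 0 to 3 leaving out single libraries. In permissive against nonpermissive cells, pathway genes that fell numbered 3 to 7 leaving out single libraries. With the replicate block (10 pathway genes fell and 4 ligands rose in that comparison, log2 fold change of Dll1 3.11), no ligand's call changed other than Dll1 there and Dlk2 in nonpermissive against control cells. None of these alternative counts of genes has its share over all genes beside it. They therefore do not show whether the difference from all genes held. Same-numbered control and permissive libraries had r = 0.51 and 0.20, control and nonpermissive 0.34 and 0.01, each over 2 pairs, too few for their numbers to be read as pairs, whatever r was. DMSO and DAPT at 24 h had 0.01, -0.05 and -0.07 and were not read as pairs either.

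For regions the classes are permissive not control, control not permissive, nonpermissive not control, control not nonpermissive, permissive not nonpermissive and nonpermissive not permissive, in this order. Main ATAC counts were 21, 12, 6, 10, 16 and 5, and H3K27ac counts 36, 0, 2, 0, 29 and 1. At a −log10 q of at least 10, ATAC gave 7, 2, 2, 0, 7 and 1 and H3K27ac 0, 0, 0, 0, 0 and 0. With equal numbers of peaks, ATAC control not permissive was 7, nonpermissive not control 3 and nonpermissive not permissive 8, and H3K27ac control not permissive was 3, control not nonpermissive 1 and nonpermissive not permissive 4. With peaks covering 50% of the region, both ATAC classes of nonpermissive libraries were 2, and H3K27ac gave 15, 2, 1, 1 and 15 for the first 5 classes. Within 50 kb, ATAC nonpermissive not control was 3. Leaving out single libraries, the ATAC counts ranged from 21 to 79, 12 to 46, 6 to 41, 10 to 45, 16 to 67 and 5 to 30, and H3K27ac from 36 to 105, 0 to 13, 2 to 33, 0 to 12, 29 to 92 and 1 to 23. Leaving out a library eases the condition of its class, since fewer libraries must then meet it. None of these alternative counts has its share over all regions beside it. The weak second permissive H3K27ac list limits what can be read from that mark, and both control lists also held few peaks at that q (916 and 1528).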
